A study of Mus musculus with 9 samples.

Results

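The genes described here are 34 imprinted genes of the mouse, followed in whole testis at postnatal day 10. Members were taken from the authors' table of expression values by gene name, in any letter case. This found 27 of the 34, among 23385 genes in all. The other 7 (H19, Airn, Meg3, Rian, Mirg, Kcnq1ot1 and Peg10) have rows without a name. Of these, 6 were matched by RefSeq accession and H19 by position, because its row ends at the last base of the RefSeq H19 gene and starts within 2 bases of its first. Counts and medians below are for the 27 named members unless the 7 are said to be included. By the allele usually expressed in the mouse, 21 members are paternally and 12 maternally expressed, and Gnas gives transcripts of both kinds.

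The compared groups were 3 RNA-seq libraries of testis labelled Lin28a knockout and 3 labelled wild type, both of strain C57BL/6 and of the same age. Another 3 samples, of RNA recovered with the LIN28A protein, were not analysed here. The knockout titles carry the prefix cKO, the labels name no promoter or Cre driver, and they do not say whether each library is a separate animal. The table gives a single FPKM value per group (fragments per kilobase of transcript, scaled to the number of mapped fragments), in a case column and a control column, together with the authors' test of the pair. No value therefore has a spread over libraries, and the depth is unknown. What spread the authors' p-values measure is therefore not known. Of all tested rows, 1.28% had an authors' p under 0.05, fewer than p-values spread evenly from 0 to 1 would give. The case column was read as the knockout and the control column as the wild type, which rests only on those names.

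An imprinted gene is expressed from a single parental copy, chosen by DNA methylation laid down at control regions in the egg or in the male germ line. Imprints are erased in primordial germ cells, and male germ cells set the paternal ones, at loci such as H19, Dlk1-Meg3 and Rasgrf1, before birth. In the soma many of these genes act on growth: paternally expressed Igf2, Dlk1, Plagl1 and Mest are active in fetal and stromal tissue, while maternally expressed Cdkn1c, Grb10, Igf2r and Phlda2 restrain growth. The table does not tell parental alleles apart, so the allele given for each gene is background and was not measured.

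Lin28a itself (NM_145833; mm10 chromosome 4, 134003330 to 134018816) was at 23.4 FPKM in the case column, against 8.82 FPKM in the control column. The authors' deposited table gives p = 5.62e-07 and q = 0.00191 for it. Lin28a was thus 2.66-fold higher where a knockout was labelled, against that label, and every direction that follows depends on the names of the columns.

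Most of the 34 members were slightly higher in the case column, among paternally and maternally expressed ones alike; the difference between the 2 kinds was not tested. A mean of 1 FPKM or more over the 2 columns was reached by 22 of the 27 named members. Of these 22, 19 were higher in the case column, or 86.4%, where 60.8% of the 12664 genes at that level were. When the columns were rescaled by the median ratio of all genes, 19 of 22 members and 50% of all genes were higher. With the 7 unnamed members included, 23 of 28 were higher under either scaling. The median of the log2(FPKM + 1) differences (case minus control) stood at 0.22 for the 14 paternally expressed members and 0.20 for the 7 maternally expressed ones, where the median over all genes was 0.03. With unnamed rows included these medians were 0.19 over 16 genes and 0.23 over 11. At least 1.2-fold higher levels were seen in 13 of the 22, against 9.75% of all genes, a fold chosen after the values were seen; after rescaling the count was 10, against 7.48% of all genes. At 1.5-fold, 0 of the 22 were higher and 0 were lower, where 1.3% and 1.41% of all genes were.

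None of these differences passed the authors' threshold. The named members had 51 rows, of which 27 were tested, and 0 of the 27 had q under 0.05 in the authors' deposited table, where 0.0514% of all tested rows did. At an unadjusted p under 0.05 the authors' deposited table held 2 of the 27, both higher in the case column, where 1.28% of all tested rows were in either direction and 0.646% were higher. Those were the main rows of Dlk1 and Plagl1. Among the 8 tested rows without a name, H19 and a minor row of Meg3 were also under 0.05. The remaining rows of named members had the status NOTEST (16), FAIL (7) or LOWDATA (1), and their p-values are not used.

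**Figure D1:**
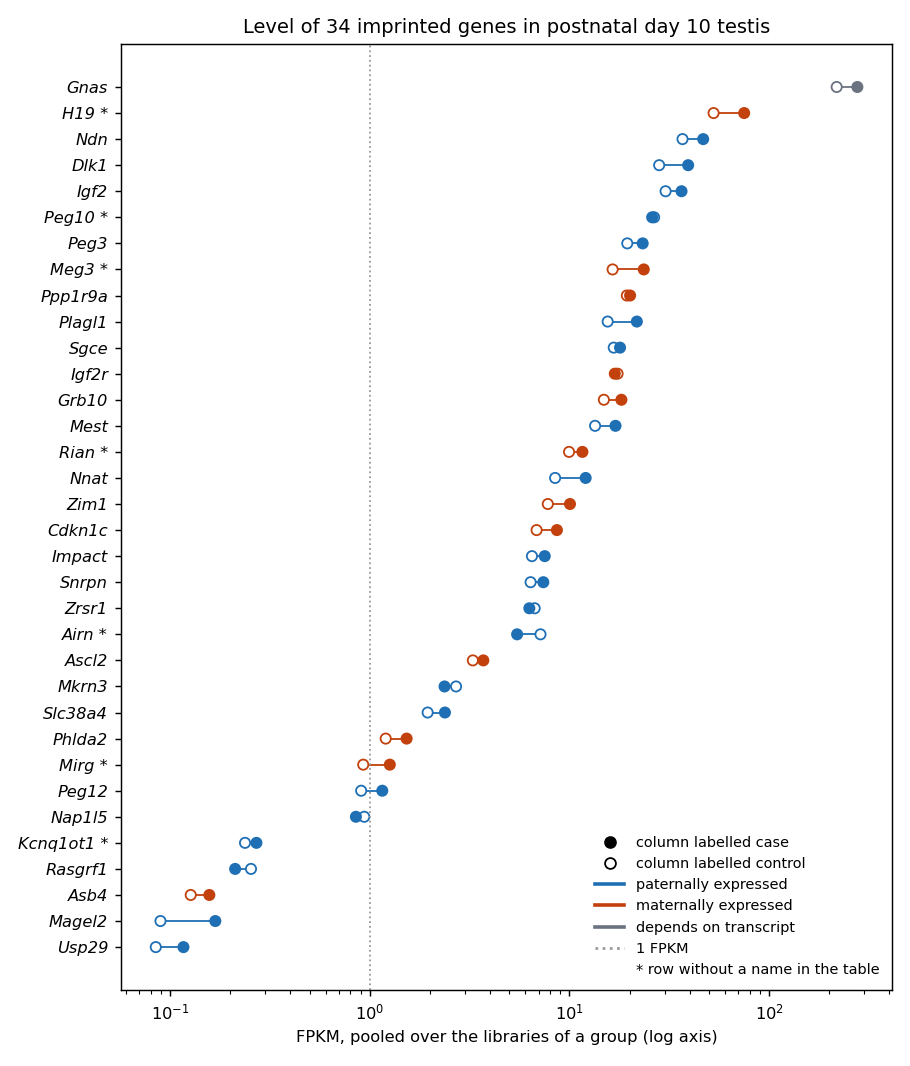
FPKM of the 34 imprinted genes in the case column (filled) and the control column (open), on a log axis, ordered by mean level and coloured by the allele usually expressed, each point being 1 pooled value. Levels run from 277 FPKM for Gnas to about 0.1 FPKM for Usp29, and in most rows the filled point lies to the right of the open one.

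Levels of the members, which FPKM scales to transcript length, ranged over more than 3 orders of magnitude. Gnas was at 277 FPKM in the case column, against 218 FPKM in the control column, a mean above that of 99.1% of the genes analysed. H19, Ndn, Dlk1 and Igf2 followed, with means of 63.9, 41.8, 33.7 and 33.4 FPKM. At the low end, Peg12, with a mean of 1.03 FPKM, lay just inside the filter and Nap1l5, with a mean of 0.895 FPKM, just outside it. Nap1l5, Rasgrf1, Asb4, Magel2 and Usp29 were the 5 named members below 1 FPKM, and Kcnq1ot1 was the single unnamed one. Rasgrf1, a Ras exchange factor, was at 0.212 and 0.254 FPKM in the case and control columns. Magel2, a regulator of ubiquitin ligases from the Prader-Willi region, was at 0.168 FPKM in the case column, against 0.0894 FPKM in the control column. Nap1l5, an intronless gene inside Herc3, was at 0.852 and 0.938 FPKM, and Asb4, a ubiquitin ligase adaptor, at 0.157 and 0.127 FPKM in the case and control columns. At such levels a fold has little meaning, and none of these rows except that of Nap1l5 was tested by the authors.

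Promoter windows of 300 bases, from 250 before to 50 after a gene's start, were present in a RefSeq table (GRCm38.p6) for 29 members, in 46 windows. They are shown for Meg3, Dlk1, Nnat and Plagl1, which had the largest log2 differences among members with a window, for Mest, which has 2 copies of the hexamer described next, and for Peg3, which shares its start region with Usp29. Capitals mark TGCCGC on either strand (GCGGCA on the other). Where a gene has several windows, the one with most copies of the hexamer is shown. Another window of Meg3 (chr12:109545148-109545447) and another of Mest (chr6:30733256-30733555) hold 0 copies of the hexamer. ZFP57, the zinc finger protein that keeps imprints after fertilisation, recognises this hexamer when its CpG is methylated. Windows lie at chr12:109540746-109541045 (Meg3, plus strand), chr12:109452573-109452872 (Dlk1, plus), chr2:157559828-157560127 (Nnat, plus), chr10:13090582-13090881 (Plagl1, plus), chr6:30737800-30738099 (Mest, plus) and chr7:6730370-6730669 (Peg3, minus).
Meg3: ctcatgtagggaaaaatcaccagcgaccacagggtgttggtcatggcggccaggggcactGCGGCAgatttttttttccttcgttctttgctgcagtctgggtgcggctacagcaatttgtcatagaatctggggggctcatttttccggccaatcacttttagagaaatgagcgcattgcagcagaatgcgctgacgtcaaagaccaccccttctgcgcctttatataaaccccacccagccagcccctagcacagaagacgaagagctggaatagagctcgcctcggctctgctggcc
Dlk1: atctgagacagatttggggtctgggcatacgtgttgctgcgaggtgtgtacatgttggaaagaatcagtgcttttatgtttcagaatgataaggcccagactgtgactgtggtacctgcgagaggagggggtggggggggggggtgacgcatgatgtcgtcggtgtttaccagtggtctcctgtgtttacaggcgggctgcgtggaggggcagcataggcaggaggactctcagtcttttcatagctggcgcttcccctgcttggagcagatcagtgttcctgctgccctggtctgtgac
Nnat: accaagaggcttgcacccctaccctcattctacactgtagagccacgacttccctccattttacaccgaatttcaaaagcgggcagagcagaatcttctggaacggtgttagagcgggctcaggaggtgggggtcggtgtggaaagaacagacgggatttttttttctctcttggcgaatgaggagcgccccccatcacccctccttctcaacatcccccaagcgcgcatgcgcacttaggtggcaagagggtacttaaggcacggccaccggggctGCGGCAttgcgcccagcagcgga
Plagl1: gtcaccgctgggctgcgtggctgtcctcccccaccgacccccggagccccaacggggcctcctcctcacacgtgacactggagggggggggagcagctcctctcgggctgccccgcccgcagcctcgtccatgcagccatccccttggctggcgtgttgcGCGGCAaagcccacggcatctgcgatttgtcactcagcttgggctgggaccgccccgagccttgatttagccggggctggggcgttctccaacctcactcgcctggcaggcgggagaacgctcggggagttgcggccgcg
Mest: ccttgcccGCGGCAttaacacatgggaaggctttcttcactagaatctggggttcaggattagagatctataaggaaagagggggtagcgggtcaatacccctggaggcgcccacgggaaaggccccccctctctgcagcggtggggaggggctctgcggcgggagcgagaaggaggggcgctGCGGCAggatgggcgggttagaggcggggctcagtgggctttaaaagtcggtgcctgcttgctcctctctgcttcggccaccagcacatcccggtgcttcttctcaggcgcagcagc
Peg3: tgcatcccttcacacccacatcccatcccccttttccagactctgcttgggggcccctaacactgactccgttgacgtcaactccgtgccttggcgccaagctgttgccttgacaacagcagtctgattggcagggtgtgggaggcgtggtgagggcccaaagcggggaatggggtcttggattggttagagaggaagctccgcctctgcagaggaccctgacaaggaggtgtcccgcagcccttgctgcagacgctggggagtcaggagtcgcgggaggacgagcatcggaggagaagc

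The hexamer was found in 10 of the 46 windows, belonging to 9 members, or 21.7%, and in 11.6% of 32851 windows of all genes. A match is a description of these letters, and neither binding nor methylation was measured. CpG dinucleotides numbered a median of 11.5 per member window and 7 per window of all genes, and 60.9% of member windows held at least 10, against 43.5% of all windows. Several windows can belong to 1 gene, and the 10 with the hexamer include overlapping windows of Mest. The hexamer itself contains a CpG, so its share and the CpG numbers are not separate observations. The windows of Peg3 and Usp29, which start on opposite strands, share 263 bases. Peg3 was at 23.3 and 19.5 FPKM in the case and control columns, while Usp29, a ubiquitin protease gene, was at 0.117 and 0.0847 FPKM.

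**Figure D2:**
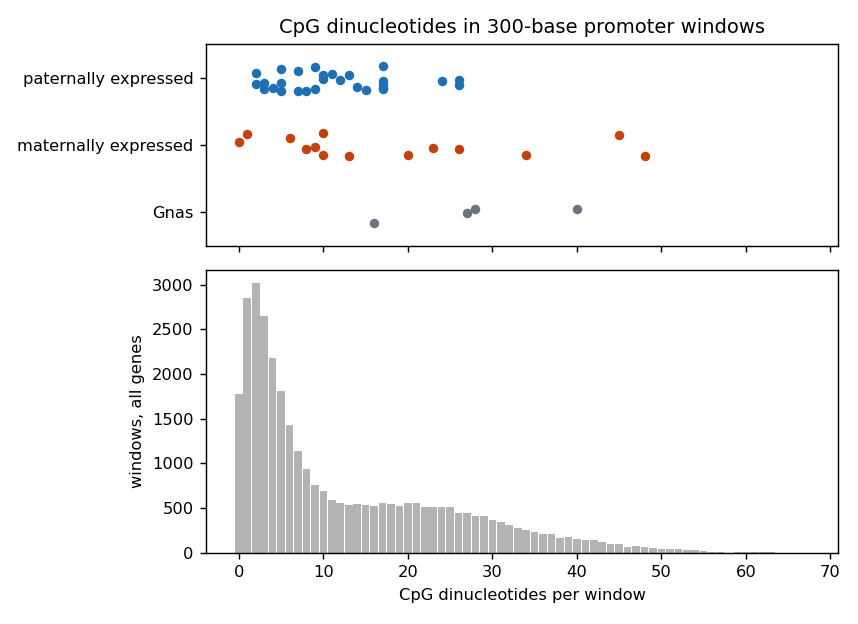
CpG dinucleotides per 300-base promoter window of members, by allele usually expressed (top, each point 1 window), and of all 32851 windows (bottom, number of windows). Member windows hold between 0 and 48 CpG dinucleotides, with a median of 11.5 against 7 in all windows.

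Paternally expressed growth genes were among those with the largest differences. Dlk1 (NM_010052; mm10 chromosome 12, 109452823 to 109463336), a Notch-related membrane protein of progenitor and stromal cells, was at 39.3 FPKM in the case column, against 28.1 FPKM in the control column, or 1.40-fold higher over its 4 named rows. Its main row had p = 0.0479 in the authors' deposited table. Plagl1 (NM_009538; chromosome 10, 13090788 to 13131695), a zinc finger transcription factor that in the mouse regulates other imprinted genes, was at 21.8 and 15.5 FPKM in the case and control columns, also 1.40-fold higher, with p = 0.0494 in the authors' deposited table. Over all genes analysed, 1.14% had a larger log2 difference than Dlk1 and 1.22% a larger one than Plagl1.

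Igf2 (chromosome 7, 142650768 to 142670356), the fetal growth factor, was at 36.4 FPKM in the case column, against 30.3 FPKM in the control column, 1.202-fold higher. Mest, a hydrolase-like protein of mesoderm, was at 17.0 and 13.4 FPKM in the case and control columns, 1.27-fold higher. Peg3, a zinc finger protein, was at 23.3 and 19.5 FPKM, 1.19-fold higher. The p-values of the main rows of these 3 genes lay between 0.299 and 0.452 in the authors' deposited table. Like Dlk1 and Plagl1, all 3 were higher in the case column, without a call by the authors' test.

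Nnat, a small membrane proteolipid first known from brain, was at 12.1 FPKM in the case column, against 8.48 FPKM in the control column, 1.42-fold higher, the largest fold among the named members at a mean of 1 FPKM or more. Part of that came from a minor row (NM_180960), at 2.02 and 0.408 FPKM in the case and control columns, with p = 0.0969 in the authors' deposited table. Its main row was at 10.0 and 8.07 FPKM, a log2(FPKM + 1) difference of 0.28. Ndn, a MAGE-family growth suppressor of the Prader-Willi region, was at 46.8 FPKM in the case column, against 36.8 FPKM in the control column, 1.27-fold higher with p = 0.200 in the authors' deposited table.

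Maternally expressed growth-restraining genes were higher in the same column, with the exception of Igf2r. Cdkn1c, an inhibitor of cyclin-dependent kinases, was at 8.65 FPKM in the case column, against 6.85 FPKM in the control column, 1.26-fold higher. Grb10, an adaptor that dampens insulin and IGF receptor signalling, was at 18.2 and 14.9 FPKM in the case and control columns, 1.22-fold higher; it is paternally expressed in neurons. Phlda2, a placental growth restrainer, was at 1.53 and 1.201 FPKM, 1.27-fold higher. Igf2r (chromosome 17, 12682406 to 12868143, a span that takes in overlapping genes), which clears IGF2, was at 16.9 FPKM in the case column, against 17.4 FPKM in the control column. It was 1.03-fold lower, with p = 0.850 in the authors' deposited table. The growth factor Igf2 was thus higher in the case column and its clearance receptor nearly equal in the 2 columns, and neither passed the threshold.

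Other maternally expressed members were Zim1, Ascl2 and Ppp1r9a. Zim1, a zinc finger gene beside Peg3, was at 10.1 FPKM in the case column, against 7.79 FPKM in the control column, 1.29-fold higher with p = 0.236 in the authors' deposited table. Ascl2, a transcription factor of placenta, was at 3.70 and 3.28 FPKM in the case and control columns. Ppp1r9a, a neural actin-binding protein, was at 20.1 and 19.4 FPKM, 1.04-fold higher.

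The noncoding RNAs were found through the unnamed rows, and the maternally expressed ones were all higher in the case column. H19 (NR_001592; chromosome 7, 142575532 to 142578146), transcribed beside Igf2, was at 75.0 FPKM in the case column, against 52.7 FPKM in the control column. It was 1.42-fold higher, with p = 0.0366 in the authors' deposited table. Meg3 was at 23.6 and 16.5 FPKM in the case and control columns, summed over 3 rows and 1.43-fold higher; its main row had p = 0.109 and a minor row p = 0.0472 in the authors' deposited table. Rian, which hosts small nucleolar RNAs, was at 11.6 and 9.95 FPKM, and Mirg, which hosts microRNAs, at 1.26 and 0.927 FPKM. Meg3, Rian and Mirg lie in a row downstream of Dlk1 on chromosome 12. H19 and Meg3 had the largest log2 differences of all 34 members.

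Airn, the paternally expressed RNA that silences Igf2r on the paternal copy, was the member that was lowest relative to the control column. It was at 5.47 FPKM in the case column, against 7.16 FPKM in the control column, 1.31-fold lower over 4 rows, the main one with p = 0.372 in the authors' deposited table. Its rows differed in direction, since the main row was at 3.57 and 5.80 FPKM in the case and control columns and another at 0.994 and 0.553 FPKM. Airn overlaps Igf2r on the other strand, and the counting's use of strand was not given in the sources used here, so reads of the pair may be shared. Kcnq1ot1, the silencing RNA of the Kcnq1 cluster, was at 0.270 and 0.237 FPKM in the case and control columns.

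**Figure D3:**
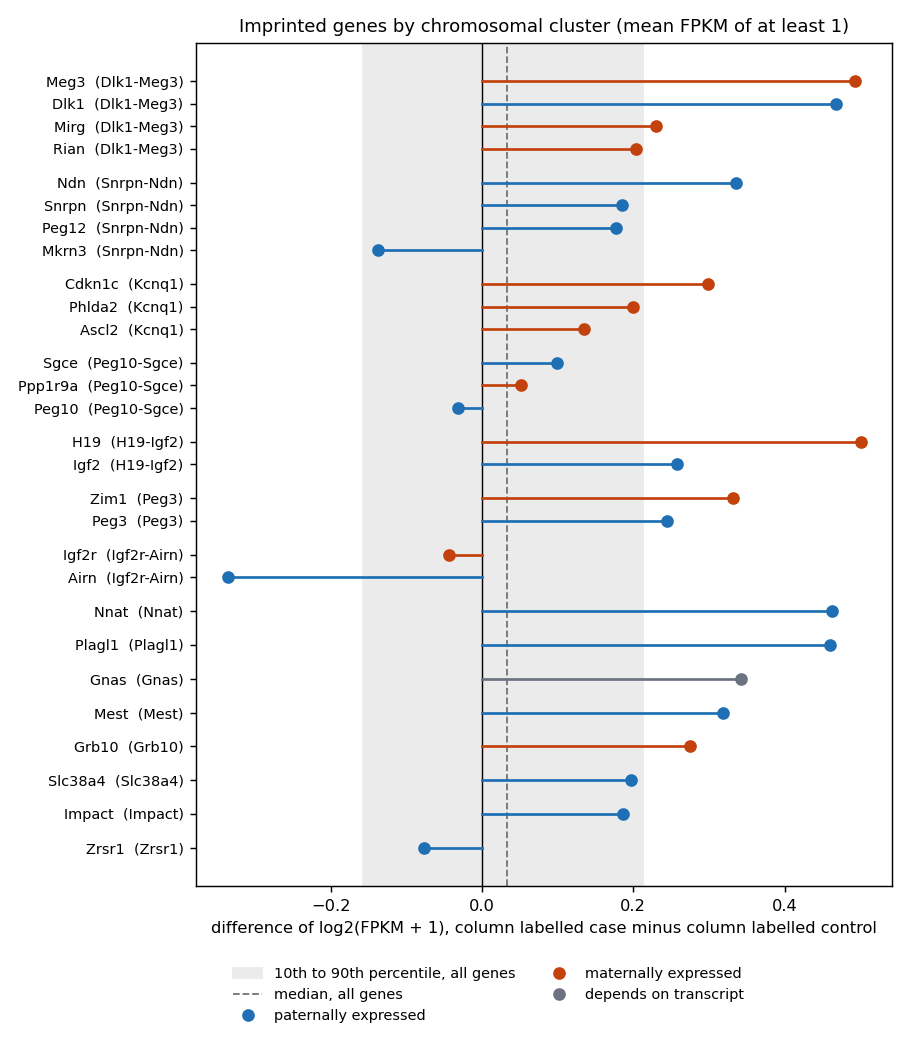
Difference of log2(FPKM + 1), case minus control, for the 28 members with a mean of 1 FPKM or more, grouped by chromosomal cluster and coloured by the allele usually expressed. The shaded band spans the 10th to 90th percentile of all genes (-0.16 to 0.21) and the dashed line their median; in the H19-Igf2, Dlk1-Meg3 and Peg3 clusters genes of both alleles lie to the right of 0.

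In 5 clusters, members of both parental kinds reached a mean of 1 FPKM. All members of a cluster were higher in 3 of these, both were lower in the Igf2r-Airn pair, and the Peg10-Sgce cluster was divided. In the H19-Igf2 cluster both genes were higher in the case column, by 1.42-fold and 1.202-fold. All 4 members of the Dlk1-Meg3 cluster were higher, by 1.17-fold to 1.43-fold, and their summed level was 75.8 FPKM in the case column, against 55.5 FPKM in the control column. Peg3 and Zim1, of opposite parental expression, were both higher. In the Peg10-Sgce cluster folds stayed between 0.978 and 1.08. There Sgce, a sarcoglycan gene, was at 17.9 and 16.7 FPKM in the case and control columns, and Peg10, a retrotransposon-derived gene of the placenta, at 26.0 and 26.6 FPKM. These are counts of single pooled values and were not tested.

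In the Prader-Willi region, on chromosome 7, 3 of the 4 members at a mean of 1 FPKM or more were higher in the case column. Ndn, described above, was among them and held most of the level. Summed over its 5 members, the region was at 57.9 FPKM in the case column, against 46.9 FPKM in the control column. Snrpn, a splicing protein, was at 7.40 FPKM in the case column, against 6.39 FPKM in the control column, nearly all from a row with the status LOWDATA. Peg12 was at 1.15 and 0.905 FPKM in the case and control columns. Mkrn3, a ring finger ubiquitin ligase known in human for its part in the timing of puberty, was at 2.37 FPKM in the case column, against 2.70 FPKM in the control column, 1.14-fold lower with p = 0.691 in the authors' deposited table.

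Impact, Slc38a4 and Zrsr1 lie outside these clusters. Impact, a regulator of the GCN2 kinase, was at 7.52 FPKM in the case column, against 6.49 FPKM in the control column, 1.16-fold higher. Slc38a4, an amino acid transporter, was at 2.38 and 1.95 FPKM in the case and control columns, 1.22-fold higher. Zrsr1, a splicing factor gene inside an intron of Commd1, was at 6.30 and 6.70 FPKM, 1.06-fold lower. The 3 named members lower in the case column at a mean of 1 FPKM or more were therefore Igf2r, Zrsr1 and Mkrn3.

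Gnas, which encodes the stimulatory G protein alpha subunit and further imprinted proteins from upstream starts, had 7 named rows, all with the status FAIL and so with no p-value. A single row (NM_201616; chromosome 2, 174281237 to 174346742) held nearly all of the level, at 275 FPKM in the case column, against 217 FPKM in the control column. Summed over its named rows Gnas was 1.27-fold higher. A noncoding row of the same gene (NR_003258), without a name, was at 125 FPKM in the case column, against 140 FPKM in the control column. With that row included Gnas was at 402 and 358 FPKM in the case and control columns, 1.12-fold higher, so the size of its difference rests on how its transcripts are divided.

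Of the 27 named members, 10 had more than 1 row. In Dlk1, Grb10, Snrpn and Sgce the main row held at least 93.6% of the level in both columns. Igf2 was divided between a row at 28.9 FPKM in the case column, against 25.3 FPKM in the control column (NM_001122737), and a row at 7.08 and 4.96 FPKM (NM_010514). Another Igf2 row was at 0.400 FPKM in the case column and was listed at 0 in the control column. A minor row of Mest (NM_001252292) was at 0.862 FPKM in the case column, against 0.129 FPKM in the control column, with p = 0.0704 in the authors' deposited table.

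Further imprinted genes lay near the values of all genes. Of 42 further genes reported as imprinted in the mouse, 23 had a mean of 1 FPKM or more, 15 of them were higher in the case column and their median difference was 0.02, where 60.8% and 0.03 were the values of all genes. After rescaling 10 of the 23 were higher and the median was -0.012. Many genes of that list are imprinted in a few tissues such as placenta or brain. Of the 19 with a tested main row, 0 had p under 0.05 in the authors' deposited table, and 0.825% of all genes with such a row did, so a count of 0 is near that share. Pon2, a paraoxonase, was at 7.85 FPKM in the case column, against 6.21 FPKM in the control column. Atp10a, a lipid flippase, was at 4.12 and 3.41 FPKM, and Copg2, a coatomer subunit, at 46.0 and 50.3 FPKM in the case and control columns. Gatm, an enzyme of creatine synthesis and the most abundant of the list, was at 266 and 285 FPKM.

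A list of factors that set or keep imprints, which also counts the Tet enzymes and Tdg, gave a median difference of 0.05 over 21 of 24 genes. All genes had 0.03. As deposited 15 of the 21, or 71.4%, were higher, where 60.8% of all genes were, and after rescaling 12, or 57.1%, where 50% of all genes were. Trim28, the corepressor that ZFP57 recruits, was at 107 FPKM in the case column, against 102 FPKM in the control column. Dnmt3a, a de novo DNA methyltransferase, was at 24.9 and 21.6 FPKM in the case and control columns. Tet1 and Tet2, which oxidise methylcytosine, were at 1.52 and 1.17 FPKM and at 3.14 and 2.45 FPKM. Of the 16 with a tested main row, 0 had p under 0.05 in the authors' deposited table, again near the 0.825% of all genes.

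Most markers of Leydig, stromal and endothelial cells were, like most members, higher in the case column, and markers of meiotic cells were lower there. Over all genes 60.8% were higher in that column, and the median difference was 0.03. Counts and medians of the lists are for genes at a mean of 1 FPKM or more. Summed levels are over every gene of a list, also those below that level. Of 10 Leydig cell markers 10 were higher in the case column, with a median difference of 0.27 and a summed level of 491 FPKM in the case column, against 405 FPKM in the control column. Among them Hsd17b3, which makes testosterone, was at 38.7 FPKM in the case column, against 24.6 FPKM in the control column. Of 12 peritubular and stromal markers 12 were higher (median 0.22; summed level 1106 and 961 FPKM in the case and control columns), as were 8 of 9 endothelial markers at a mean of 1 FPKM or more (median 0.23; 48.9 and 41.1 FPKM). All 12 meiotic prophase markers were lower (median -0.72; 317 and 536 FPKM), and 6 of the 11 with a tested main row had p under 0.05 in the authors' deposited table, where 0.825% of all genes did, but 0 had q under 0.05. Tex101, a germ cell surface protein and the most abundant of these, was at 87.0 FPKM in the case column, against 165 FPKM in the control column. Sertoli cell markers were divided, with 7 of 12 higher, near the share of all genes, and a median of 0.08. Their summed level was 2770 and 2964 FPKM in the case and control columns. Most of it came from Clu, at 2028 and 2251 FPKM, so this sum mainly follows 1 gene. Spermatogonia markers were higher in 4 of 11 (median -0.03; 471 and 520 FPKM), and macrophage markers were higher in 0 of 8 (median -0.15; 86.8 and 107 FPKM). Of the epididymis and duct markers 1 of 4 was higher (median -0.89; 52.9 and 65.6 FPKM), and 2 of the 10 on that list were listed at 0 in both columns, while no marker of the other lists was. Spink8, a protease inhibitor of the epididymis, was at 0.677 FPKM in the case column, against 8.05 FPKM in the control column, and Crisp1, a secreted epididymal protein, at 0.261 and 2.27 FPKM. Cst8 was the 1 higher of the 4, at 17.6 FPKM in the case column, against 9.65 FPKM in the control column. Its main row had p = 0.0651 in the authors' deposited table. Most of the summed level of the duct list came from Epcam, at 32.4 and 43.4 FPKM in the case and control columns. Spink8 and Crisp1 were the 2 duct markers with p under 0.05 in the authors' deposited table, of 4 tested. Rhox5, a Sertoli cell homeobox gene, and Hsd17b3 were the single such genes of 12 Sertoli and 9 Leydig markers tested, Rhox5 being lower in the case column. None of the markers' tested main rows had q under 0.05 in the authors' deposited table. After rescaling 9 of 10 Leydig, 11 of 12 stromal and 3 of 11 spermatogonia markers were higher, where 50% of all genes were. The other marker lists kept their counts. In bulk tissue fewer cells of a type and less RNA per cell cannot be told apart, and the part of these markers in the values of the imprinted genes was not tested.

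**Figure D4:**
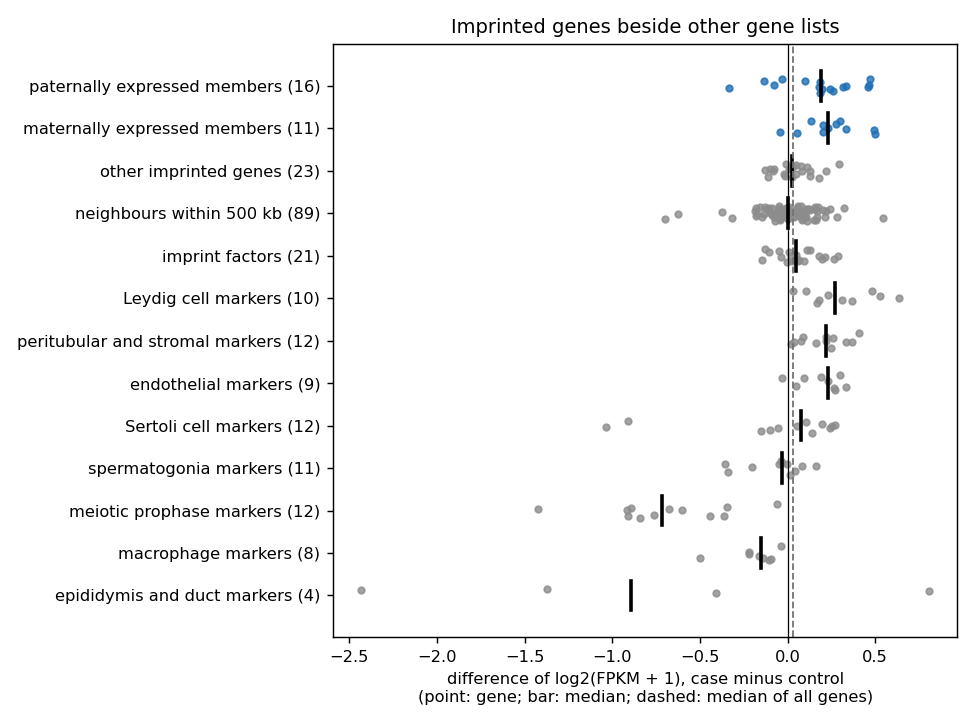
Difference of log2(FPKM + 1), case minus control, for genes at 1 FPKM or more on average in each list (number in brackets), with unnamed rows of members included; points are genes, bars are medians and the dashed line is the median of all genes. The medians of both parental classes lie around 0.2, near those of the Leydig, stromal and endothelial markers. Those of other imprinted genes and neighbours, the genes within 500000 bases of a member, lie near 0. Single members run from -0.34 (Airn) to 0.50 (H19).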

How the data were processed

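Per the submitters' processing notes, reads were aligned with TopHat2 2.0.9 and the build was mm10. A name for the program behind the FPKM was not given in the sources used here. For each row, the authors deposited FPKM in 2 pooled columns, with a p-value and a q-value per row of 1 RefSeq accession. The deposited log2 ratio and test statistic, which hold placeholders and are treated as a score, were used only to check the direction: the log2 ratio is control over case, within 5.01e-05 in 13586 tested rows. The authors' q-values were those of a Benjamini-Hochberg adjustment over the 13629 rows with status OK, within 2.26e-06.

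Symbols came by accession from a RefSeq table (GRCm38.p6) for 29071 of 29660 accessions. FPKM was summed over the rows of a gene, a mean of 1 FPKM or more was required (12664 of 23385 genes), and log2(FPKM + 1) was compared, which understates changes at low FPKM. Starts in the table count from 0, and 1 was added. With values for whole groups only, limma could not be run, no test was made here, and calls are those of the authors. Code was tested on simulated data (Python 3.11.15, pandas 2.3.3). The members and lists were chosen with earlier results of these data known. By the naming rule every member and Lin28a are named, and of every other list the 3 genes with the smallest p-value, with the most abundant gene of each marker list. Marker lists are mostly summarised instead, and Gatm and Trim28, the most abundant of their lists, were added after their values were seen. Alternatives changed the filter, pseudocount, rows used, scaling and fold.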

Additional observations from a re-analysis of the deposited data

How the results depend on the processing

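Of 31 medians of the 4 gene lists under alternatives, 30 kept their sign and moved by under 0.1 on the log2 scale. The other, that of other imprinted genes, changed sign to -0.012 with median-of-ratios rescaling, which divides the ratio of the columns by 1.03. The median of paternally expressed members ran from 0.19 to 0.27 and that of maternally expressed ones from 0.17 to 0.29. At least 1.5-fold higher members numbered 1 with no filter on low values (Magel2, near 0.1 FPKM) and, with a fold of 1.2 added after seeing the data, 13. Calls numbered 2 at an unadjusted p under 0.05, and 4 with nameless rows, also added after seeing the data. Of 155 values of 23 genes, 4 moved by over 0.1 and 0 changed sign. Those that moved were Nnat (0.28, main row only), Phlda2 (0.32) and Peg12 (0.32) with a pseudocount of 0.1, and Gnas (0.17) with its nameless row. Many of the 155 could not move, so these counts say little about robustness. A filter does not alter the value of a kept gene, and settings on rows leave a gene with 1 row as it is. A pseudocount cannot change a sign. Leaving out each replicate was not run, because values per library were not analysed here. No paired analysis was possible because both columns hold 1 value per gene. Since FPKM carry no depth, no counting interval can be given.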

Other observations

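Genes that lie near the members on the chromosomes but are on neither imprinted list were looked at after the values of the members were seen. Of 255 such genes within 500000 bases of a member, 89 had a mean of 1 FPKM or more. In the case column 47 of the 89 were higher, or 52.8%, and their median difference of log2(FPKM + 1) was 0.0011, where all genes had 60.8% higher and a median of 0.03, and the 22 named members 86.4% and 0.22. A fold of 1.5 was passed by 1 neighbour that was higher and 3 that were lower, where 1.3% and 1.41% of all genes passed it. Of the 89, 1 is near the first share and 3 is above the second, though both counts are small. The higher one was Adamts7, a metalloprotease gene near Rasgrf1, at 6.56 FPKM in the case column, against 4.19 FPKM in the control column. Among the lower ones were Ctsh, a lysosomal protease gene, at 6.31 and 10.9 FPKM in the case and control columns, and Peg3os, which overlaps Peg3 on the other strand, at 1.502 and 2.86 FPKM. The remaining one was Tnni2, at 0.748 and 1.27 FPKM. Without strand, reads of Peg3 and Peg3os cannot be told apart. These counts were not tested, and absence from the imprinted lists does not show that a neighbour is not imprinted.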
